A study of Mus musculus with 3 samples.

Results

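The potassium channel genes, taken as every gene whose symbol starts with Kcn, were followed in GFP+ cells sorted from the developing mouse neocortex (NCx). Of 99 such symbols among 31053 genes, 69 had at least 30 UMIs (unique molecular identifiers, each a captured mRNA molecule) summed over the 3 libraries and are the members described here. The other 30 fell under that minimum, 6 of them with no UMI at all. Kcng3 lay just inside the minimum with 35 UMIs, and Kcng1 lay just outside with 28 UMIs. Of all 31053 genes, 13806 reached the same minimum. By symbol, 33 members encode voltage-gated pore subunits or their silent partners, 8 encode tandem-pore channels, 7 encode inward rectifiers, and 10 encode auxiliary subunits. Another 7, with Kcnn, Kcnma, Kcnt, or Kcnu symbols, were grouped as calcium- or sodium-activated. This grouping by symbol does not show what gates each of them. The remaining 4 do not encode channel subunits.

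The cells came from Sst-Cre; RCEloxP mice (SstCre/+;RCEfl/+), in which Cre made from the Sst gene turns on an EGFP reporter in every cell that has made it, so that GFP marks a history of Sst expression and not its current level. Tissue of 6 animals was pooled for E16.5 and of 3 animals each for P1 and P5, GFP+ and DAPI-negative cells were sorted, and each stage gave 1 library. Nothing separates the stage from its library, and dissociation also differed: P5 tissue received trypsin and DNase beside pronase, and P1 and P5 cells passed through percoll. The libraries held 25638779, 15654107, and 13429055 UMIs in 4478, 4440, and 3406 cells at E16.5, P1, and P5, respectively, and 88.3%, 56.3%, and 87.5% of the cells had over 700 genes and under 10% mitochondrial UMIs. They shared at most 6 cell barcodes.

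Potassium channels let potassium ions leave the neuron and so hold its resting potential, end each action potential, and set how fast it can fire again. The voltage-gated families open on depolarization, the calcium- and sodium-activated channels open as those ions accumulate, the tandem-pore channels leak at rest, and the inward rectifiers hold the resting potential or answer to transmitters through G proteins. In cortical SST+ interneurons these genes accompany the maturation of firing, and the long-range projecting SST+ cells that make neuronal nitric oxide synthase (Nos1) are known for a distinct physiology and for activity during sleep.

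Levels were compared between cells with at least 1 Nos1 UMI (Nos1 cells) and cells with at least 1 Lhx6 UMI but no Nos1 UMI (Lhx6 cells). Lhx6 encodes a transcription factor of interneurons born in the medial ganglionic eminence. The libraries held, in order of age, 67, 434, and 547 Nos1 cells and 3269, 1606, and 1874 Lhx6 cells. A Nos1 cell held a median of 7863, 3704, and 3073 UMIs, and an Lhx6 cell held 5808, 3811, and 4752. The UMIs of a set were added up over its cells and scaled to 1000000 UMIs of that set (CPM). A ratio was read only for genes with at least 20 UMIs in both sets together, on the log2 scale after adding 1 CPM to each side, and a gene is called past the fold at a log2 ratio of at least 1 or at most -1. Ratios given as folds have nothing added. With 1 library per stage there was no test, and the 95% intervals are exact (Poisson for CPM, Clopper-Pearson for folds) and cover counting error only.

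The Nos1 cells carried the markers of long-range SST+ neurons. Chodl, a marker of these cells, stood at 42.1, 284, and 399 CPM in Nos1 cells against 7.21, 12.1, and 7.13 CPM in Lhx6 cells. The 8 markers of medial ganglionic eminence interneurons summed to between 6703 and 8717 CPM in Nos1 cells and between 4804 and 6545 CPM in Lhx6 cells, with none at 0. The 67 Nos1 cells at E16.5 were mixed, however. An Lhx6 UMI was held by 49 of them, or 73%, by 360 of 434, or 83%, at P1, and by 392 of 547, or 72%, at P5. The E16.5 share was thus close to that at P5, but the 2 were not read at equal depth. Nos1 cells held a median of 7863 UMIs at E16.5 against 3073 at P5. A single Nos1 UMI was held by 38 of the 67, by 126 at P1, and by 81 at P5. The 6 excitatory neuron markers summed to 604 CPM in the E16.5 Nos1 cells against 8.53 CPM in Lhx6 cells, with none at 0 in either set. These markers summed to 156 against 9.49 CPM at P1 and to 6.11 against 2.92 CPM at P5, where 2 of the 6 were at 0 in Nos1 cells. Markers of other cells also stood higher in the Nos1 cells. The 5 markers of caudal ganglionic eminence or Meis2 cells summed to 172 against 14.7 CPM at E16.5, with 3 at 0 in Nos1 cells and 1 in Lhx6 cells, and to 58.9 against 6.24 CPM at P1, mostly from Meis2. The 5 astrocyte or radial glia markers summed to 23.6 against 2.64 CPM at E16.5, with 2 and 1 at 0. Counts and several ratios are given again without cells that carried the excitatory markers Neurod6, Slc17a7, or Tbr1, while the part of the other cell types was not tested.

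Across the families, the 65 genes for channel and auxiliary subunits together took 1219 (1131 to 1311), 2081 (2017 to 2145), and 2768 (2695 to 2843) CPM in Nos1 cells at E16.5, P1, and P5, respectively. In Lhx6 cells they took 1249 (1234 to 1264), 2234 (2201 to 2267), and 3546 (3508 to 3585) CPM. The counting intervals of both sets overlapped at E16.5 and were separate at P1 and P5, with the lower level in Nos1 cells. The non-coding Kcnq1ot1 alone held 26.7% of all 138606 member UMIs.

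Kcnn3 and Kcnv1 were the members that exceeded the fold in favor of Nos1 cells at both P1 and P5. Kcnn3 (chr3:89520164-89675132, GRCm38, GENCODE M21), a small-conductance calcium-activated channel that shapes the afterhyperpolarization, stood at 1.68, 10.7, and 15.8 CPM in Nos1 cells of the 3 libraries in order of age, and at 0.235, 2.00, and 3.46 CPM in Lhx6 cells. Its level was 5.34-fold (2.65 to 10.9) higher in Nos1 cells at P1 and 4.57-fold (2.70 to 7.73) higher at P5. A single Kcnn3 UMI in the E16.5 Nos1 cells left too few counts for a ratio there. Kcnv1 (chr15:45106284-45114920), a silent subunit that does not form channels alone and alters the voltage-gated channels it joins, stood at 15.2, 21.8, and 20.4 CPM in Nos1 cells and at 2.17, 6.99, and 4.97 CPM in Lhx6 cells. Its folds were 6.99 (3.01 to 14.5), 3.12 (2.05 to 4.73), and 4.10 (2.62 to 6.41). The higher level of Kcnv1 in Nos1 cells thus held in all 3 libraries, although with cells thinned to 2000 UMIs its log2 ratio at P1 was 0.94 in place of 1.51.

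Kcnip2, Kcnc4, Kcnq3, Kcnh3, and Kcnj6 were past the fold in the other direction at both P1 and P5. Kcnip2 (chr19:45791839-45816061) encodes a calcium-binding partner of the A-type channels of the Kcnd family. Its level was 3.37, 14.7, and 27.0 CPM in Nos1 cells and 4.0, 43.0, and 75.8 CPM in Lhx6 cells, which is 2.92-fold (2.00 to 4.42) lower in Nos1 cells at P1 and 2.81-fold (2.12 to 3.79) lower at P5. The study lists this gene for non-Martinotti cells and chose it on these same cells, so its direction is not independent evidence. At E16.5 the Nos1 level was under the 5.05 CPM that 3 counts would make in that set, so the sets could not be told apart there.

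Kcnc4 (chr3:107438303-107459552), the fast-inactivating member of the Kcnc family, stood at 1.68, 8.63, and 50.4 CPM in Nos1 cells and at 2.83, 19.4, and 119 CPM in Lhx6 cells. It was 2.24-fold (1.36 to 3.95) lower in Nos1 cells at P1 and 2.36-fold (1.92 to 2.92) lower at P5, where thinning to 2000 UMIs brought the log2 ratio from -1.22 to -0.91. Kcnq3 (chr15:65986387-66286642) encodes a subunit of the M-current, the slow potassium current that restrains repeated firing. It stood at 47.1, 71.1, and 131 CPM in Nos1 cells and at 35.2, 163, and 345 CPM in Lhx6 cells. Its level in Nos1 cells was thus within counting error of the Lhx6 level at E16.5, 2.30-fold (1.93 to 2.75) lower at P1, and 2.62-fold (2.31 to 2.99) lower at P5. Without cells carrying excitatory markers, the log2 ratio of Kcnq3 at E16.5 went from 0.41 to -1.70, past the fold on the side seen after birth.

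Kcnh3 (chr15:99224861-99242817), an ether-a-go-go-like channel of forebrain neurons, stood at 15.2, 15.2, and 3.06 CPM in Nos1 cells and at 39.7, 32.2, and 15.4 CPM in Lhx6 cells. It was lower in Nos1 cells in every library, by 2.62-fold (1.37 to 5.75), 2.12-fold (1.45 to 3.20), and 5.05-fold (2.27 to 14). Kcnh3 overlaps the protein-coding gene Mcrs1 on the opposite strand, and the sources used here do not state whether counting used the strand. Kcnj6 (chr16:94748636-94997701), a G-protein-gated inward rectifier, stood at 1.68, 3.55, and 5.09 CPM in Nos1 cells and at 7.82, 11.2, and 19.3 CPM in Lhx6 cells. Its level was 3.16-fold (1.47 to 8.09) lower at P1 and 3.80-fold (2.02 to 8.05) lower at P5, while a single UMI stood behind the Nos1 value at E16.5. With 5 CPM added in place of 1, the log2 ratios at P1 of Kcnc4, Kcnh3, and Kcnj6 were -0.84, -0.88, and -0.92, just short of the fold.

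**Figure D1:**
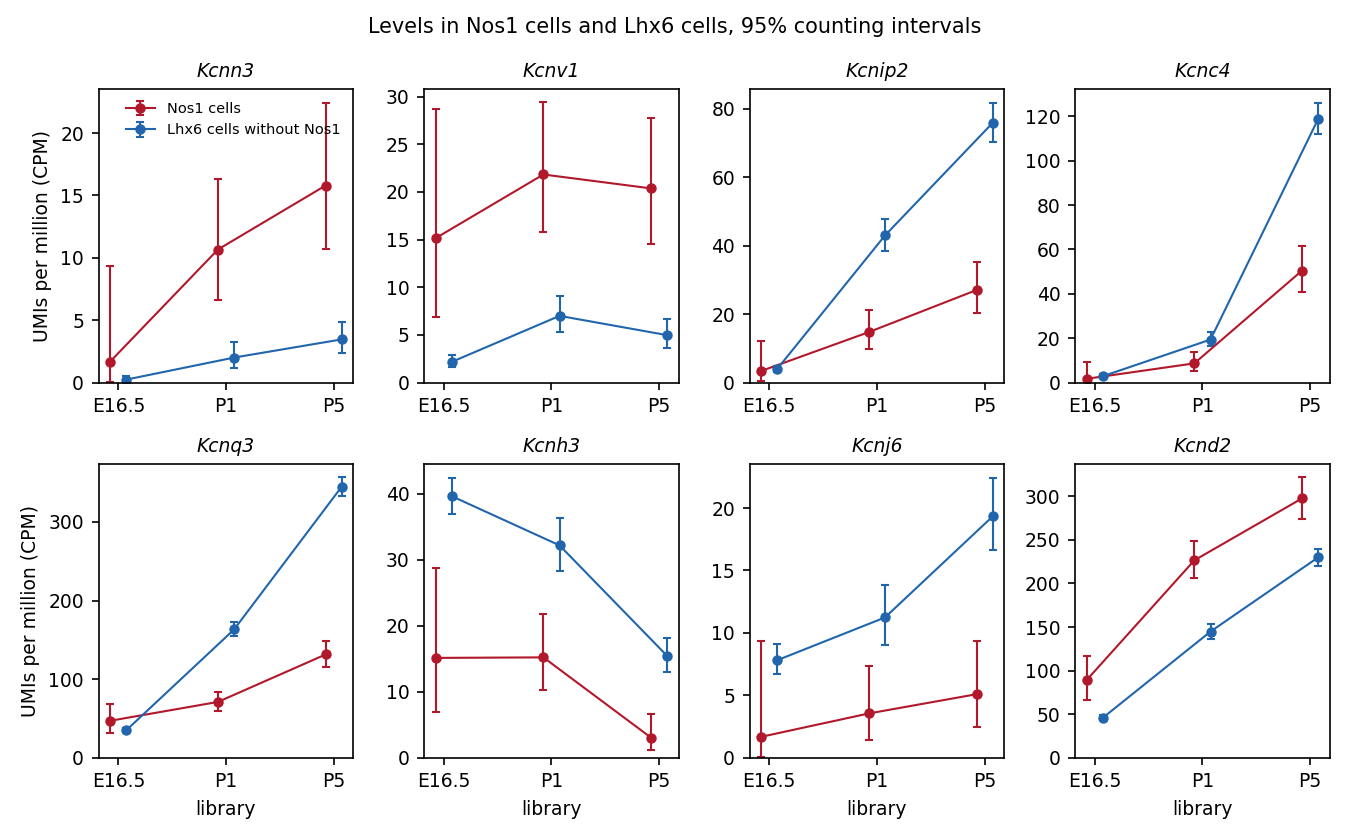
Level in CPM (linear axis from 0) of 8 members at E16.5, P1, and P5 in Nos1 cells (red) and Lhx6 cells without Nos1 (blue), with 95% Poisson intervals for counting error and 1 library per stage. Kcnn3, Kcnv1, and Kcnd2 lie higher in Nos1 cells, with Kcnn3 at 15.8 against 3.46 CPM at P5, whereas Kcnip2, Kcnc4, Kcnq3, Kcnh3, and Kcnj6 lie lower there at P1 and P5.

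RefSeq promoter sequences (GRCm38.p6, from 250 bases before to 50 bases after the annotated start, 5′ to 3′) were available for 50 of the 69 members. They are shown for 1 gene that was higher in Nos1 cells and for 2 that were lower, so that the start regions of genes with opposite patterns can be read side by side. Capitals mark every match, on either strand, to the octamer ATGCAAAT, the GC box GGGCGG, the CCAAT box CCAAT, or the TATA box TATAAA.
Kcnn3, chr3:89519914-89520213, plus strand: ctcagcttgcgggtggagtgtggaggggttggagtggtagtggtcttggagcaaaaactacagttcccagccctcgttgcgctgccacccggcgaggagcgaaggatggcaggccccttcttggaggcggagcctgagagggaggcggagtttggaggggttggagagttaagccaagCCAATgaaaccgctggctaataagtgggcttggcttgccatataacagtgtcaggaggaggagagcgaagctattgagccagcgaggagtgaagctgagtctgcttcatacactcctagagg
Kcnip2, chr19:45816014-45816313, minus strand: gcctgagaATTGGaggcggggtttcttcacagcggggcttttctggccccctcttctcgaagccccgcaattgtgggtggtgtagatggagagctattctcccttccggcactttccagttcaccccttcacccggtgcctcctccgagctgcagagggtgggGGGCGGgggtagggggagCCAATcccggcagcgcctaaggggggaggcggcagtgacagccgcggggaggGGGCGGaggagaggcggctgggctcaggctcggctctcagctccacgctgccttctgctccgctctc
Kcnc4, chr3:107458849-107459148, minus strand: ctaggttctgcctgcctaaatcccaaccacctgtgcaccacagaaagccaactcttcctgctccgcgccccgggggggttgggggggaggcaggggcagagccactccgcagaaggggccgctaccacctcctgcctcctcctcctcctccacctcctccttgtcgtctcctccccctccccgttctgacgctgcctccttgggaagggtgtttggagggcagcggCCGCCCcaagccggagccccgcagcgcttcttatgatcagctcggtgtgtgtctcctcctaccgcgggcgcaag
The Kcnn3 window held 1 CCAAT box and no GC box, the Kcnip2 window held 2 GC boxes and 2 CCAAT boxes, and the Kcnc4 window held 1 GC box. No octamer or TATA box was found in them. GC boxes occurred in 50.0% of the 70 member promoters and in 35.7% of all 32851 promoters of this length, CCAAT boxes in 34.3% and 37.4%, TATA boxes in 4.29% and 13.6%, and the octamer in 1.43% and 1.74%. The median GC content was 61.8% for member promoters and 52.7% for all. These matches describe letters in a window and not bound sites.

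At E16.5, 62 members had enough UMIs, of which 9 were past the fold upward and 9 downward in Nos1 cells, or 14.5% each way, against 6.07% and 9.40% of all 12526 genes with enough UMIs. The median log2 ratio was -0.06 over the members and -0.04 over all genes. Of the 9 members below, 4 (Kcnj12, Kcna3, Kcnk9, and Kcns1) had no UMI in Nos1 cells, where 3 counts would be 5.05 CPM. Their levels in Lhx6 cells, from 1.08 to 2.64 CPM, were under that floor, so their difference was not detectable at this depth and 5 remained below. With such genes at their bound, the members' median was 0. Without cells carrying excitatory markers the counts were 8 above and 16 below, or 12.9% and 25.8% against 5.99% and 13.2% of all genes, and 8 of the 16 had no UMI in Nos1 cells. The same 2 counts were found for Nos1 cells with Lhx6. Among the calls that differed without the marker-carrying cells, the log2 ratio of Kcnd2 went from 0.94 to 1.34, that of Kcnq5 from -0.87 to -2.30, that of Kcnc4 from -0.51 to -1.95, and that of Kcns2 from 1.19 to 0.39.

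The highest ratios at E16.5 belonged to Kcnh1, Kcnv1, and Kcna1. Kcnh1 (chr1:192190774-192510159), an ether-a-go-go channel, stood at 20.2, 27.9, and 20.9 CPM in Nos1 cells and at 1.04, 7.87, and 13.8 CPM in Lhx6 cells at the 3 stages. The fold of Kcnh1 was 19.5 (8.79 to 41.1) at E16.5, 3.55 (2.43 to 5.18) at P1, and 1.51 (1.04 to 2.16) at P5. The distance between the sets thus narrowed from library to library while the Nos1 level stayed within its counting intervals. Kcna1, a Shaker-type channel of axons, stood at 10.1 CPM in Nos1 cells, from 6 UMIs, against 1.27 CPM in Lhx6 cells. Its log2 ratio of 2.29 turned to -1.18 in Nos1 cells that also held Lhx6 and to -1.04 without cells carrying excitatory markers, both with 0 UMIs left in the Nos1 cells. Among the lowest, Kcnk2 (chr1:189207930-189402273), a tandem-pore channel gated by stretch and lipids, stood at 62.3 CPM in Nos1 cells against 177 CPM in Lhx6 cells, 2.84-fold (2.06 to 4.04) lower. At P5 Kcnk2 was alike in both sets, at 142 and 139 CPM. Kcnj6 had 1 UMI and Kcnj12, a classical inward rectifier, had none.

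At P1, 60 members had enough UMIs, and 5 were above the fold and 5 below, or 8.33% each way against 3.62% and 3.08% of all 11978 genes. With at least 2 Nos1 UMIs the counts were 8 above and 10 below, or 13.6% and 16.9% against 4.27% and 6.60% of all genes. Without cells carrying excitatory markers 4 were above and 8 below, or 6.78% and 13.6% against 3.35% and 4.13%. The median log2 ratio was 0.03 over the members and -0.03 over all genes. Beside Kcnn3 and Kcnv1, the members above were Kcnh1, Kcna4, and Kcnj4. Kcna4, an A-type Shaker channel, stood at 17.8 CPM in Nos1 cells against 7.87 CPM in Lhx6 cells, a fold of 2.26 (1.45 to 3.47). By P5 its levels were 35.1 and 29.1 CPM, a fold of 1.21 (0.915 to 1.58). All 5 members below at P1 were the 5 that were also below at P5.

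At P5, 64 members had enough UMIs, and 16 of them, or 25.0%, were below the fold in Nos1 cells against 6.38% of all 12263 genes, whereas 5, or 7.81%, were above it against 3.64%. The median log2 ratio was -0.39 over the members and -0.07 over all genes. At a count minimum of 50 UMIs, 16 of 58 members were below, or 27.6% against 5.45%. In Nos1 cells with at least 2 Nos1 UMIs the members below numbered 22, or 34.4% against 8.64% of all genes. Nos1 cells at P5 were the shallower set, and with all cells thinned to 2000 UMIs 17 of 58 members were below, or 29.3% against 8.02%. The 16 included 8 of 31 voltage-gated members, 3 of 8 auxiliary subunits, 3 of 7 inward rectifiers, 1 of 7 tandem-pore members, and 1 of 7 calcium- or sodium-activated members.

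Among the voltage-gated members below at P5, Kcnq3 was joined by its relative Kcnq5, which is named after its values were seen. Kcnq5 was at 5.09 CPM in Nos1 cells against 22.8 CPM in Lhx6 cells, a level 4.47-fold (2.38 to 9.47) lower. Kcnip4, an auxiliary subunit related to Kcnip2, was at 11.2 against 50.2 CPM, 4.48-fold (2.92 to 7.22) lower, whereas Kcnip1 of the same family was at 208 and 213 CPM. Of the inward rectifiers, Kcnj3, which joins Kcnj6 in G-protein-gated channels, was at 7.13 against 25.1 CPM, 3.51-fold (2.05 to 6.53) lower, and Kcnj4 was at 2.55 against 9.72 CPM. Kcnj9, the third member of the G-protein-gated group found here, was at 18.3 and 23.3 CPM, with an interval that spanned equality (1.27-fold lower, 0.891 to 1.86). Also below were Kcna6, Kcnab3, Kcnf1, Kcnk12, Kcnn1, and Kcns1.

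The members above at P5 were Kcnn3, Kcnv1, Kcna5, Kcnk10, and Kcnt2, of which the last 3 are named because of their values. Kcna5, a Shaker-type delayed rectifier, was at 10.2 CPM in Nos1 cells, from 20 UMIs, against 0.756 CPM in Lhx6 cells, from 7 UMIs, a fold of 13.5 (5.47 to 37.7). At P1 Kcna5 had 10 and 7 UMIs, too few for a ratio, at 5.08 against 0.874 CPM. Kcnk10, a tandem-pore channel closely related to Kcnk2, was at 65.2 against 30.7 CPM at P5, a fold of 2.13 (1.71 to 2.63), and at 55.9 against 28.2 CPM at P1. Kcnt2, a sodium-activated channel, was at 15.8 against 7.02 CPM, a fold of 2.25 (1.42 to 3.50). Both lay close to the fold, with log2 ratios of 1.06 and 1.07 that went to 0.96 for Kcnk10 in Nos1 cells that also held Lhx6 and to 0.77 for Kcnt2 after thinning.

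**Figure D2:**
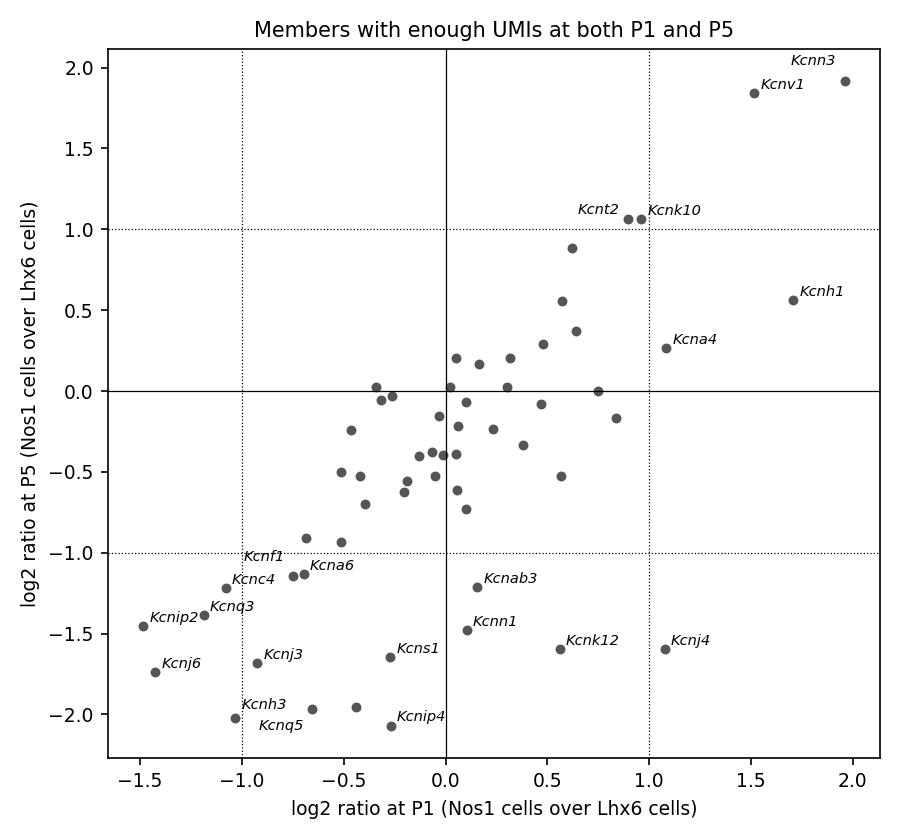
Log2 ratio of CPM in Nos1 cells over Lhx6 cells (1 CPM added) at P1 (horizontal axis) and at P5 (vertical axis) for the 58 members with enough UMIs at both stages, with dotted lines at -1 and 1 and names for members past the fold in either library that the text describes. Kcnn3 and Kcnv1 lie in the upper right, 5 members lie past both lines in the lower left, and Kcnj4 lies past them in opposite directions.

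**Figure D3:**
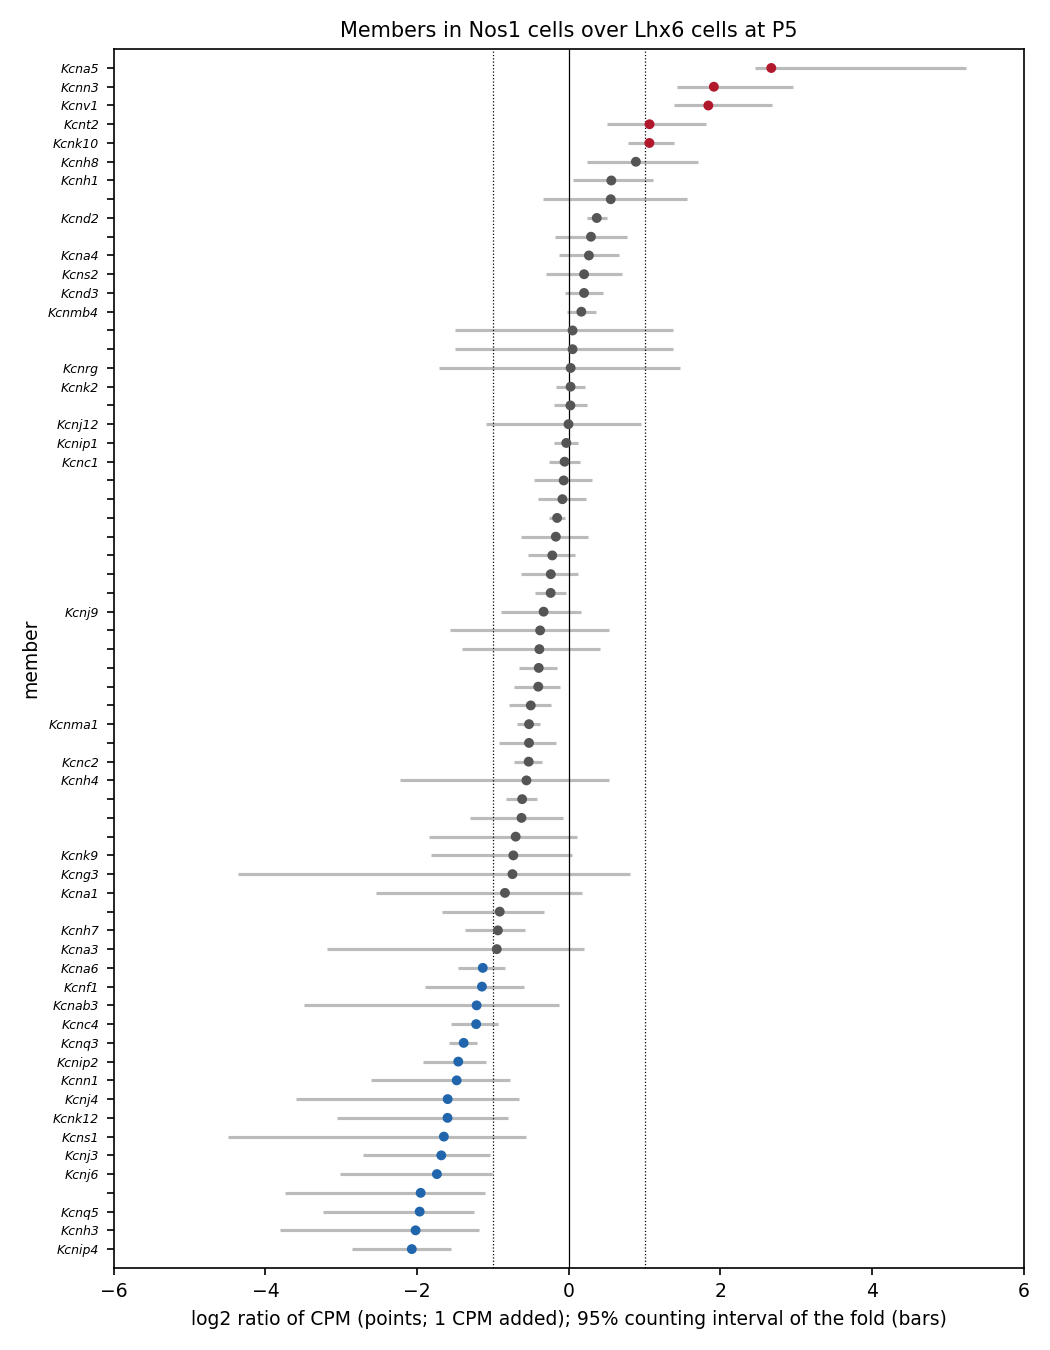
Log2 ratio of CPM in Nos1 cells over Lhx6 cells at P5 for each of the 64 members with enough UMIs (points, 1 CPM added; red above 1, blue below -1, grey between) with the 95% Clopper-Pearson interval of the fold without added CPM (bars, counting error only) and names for members that the text describes. The 16 blue points reach from Kcna6 to Kcnip4, and the 5 red points are led by Kcna5.

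Kcnd2 (chr6:21215503-21729805), the A-type channel that the study lists for long-range projecting cells and chose on these same cells, did not reach the fold in these sets, though at E16.5 it did without cells carrying excitatory markers. It stood at 89.2, 226, and 298 CPM in Nos1 cells and at 45.9, 145, and 230 CPM in Lhx6 cells, with folds of 1.94 (1.45 to 2.56), 1.56 (1.40 to 1.75), and 1.29 (1.18 to 1.42). The Nos1 level of Kcnd2 was thus the higher one in each library by more than counting error. Kcnc1 and Kcnc2, relatives of Kcnc4 whose fast delayed rectifiers allow rapid firing, lay within the fold at P5. There Kcnc1 was at 125 CPM in Nos1 cells against 130 CPM in Lhx6 cells, and Kcnc2 at 145 against 209 CPM. Kcnc2 was 1.45-fold (1.27 to 1.64) lower in Nos1 cells, and the interval of Kcnc1 (0.904 to 1.20, as a lower level) spanned equality.

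Other members with many UMIs also stayed within the fold between the sets at P5. Kcnma1, the large-conductance calcium-activated channel, was at 208 CPM in Nos1 cells against 300 CPM in Lhx6 cells, 1.44-fold (1.30 to 1.60) lower. Kcnmb4, an auxiliary subunit of Kcnma1, was at 142 against 126 CPM.

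The stage comparison gave the largest ratios among the members. In Lhx6 cells, 68 members had enough UMIs, and 43 of them, or 63.2%, were above the fold at P5 over E16.5, against 18.5% of all 13479 genes. Only Kcnh3, or 1.47%, was below it, against 12.8% of all genes. The median log2 ratio was 1.36 over the members and 0.05 over all genes. In Nos1 cells, 28 of 41 members, or 68.3%, were above the fold against 16.7% of all 9631 genes, and none was below it against 14.1% of all genes. The medians were 1.31 and 0.00. Kcna5, one of these 28, had no UMI in Nos1 cells at E16.5, and its 10.2 CPM at P5 was at least 2.02-fold above the floor of 3 counts over that set. The Nos1 cells held 594151 UMIs at E16.5 against 1963238 at P5, so the count minimum was reached mainly through P5. That minimum therefore favored members higher at P5, and the count of 0 below the fold depends on it. With a minimum of 10 UMIs, 33 of 55 members were above the fold and 4 were below. These were 60.0% and 7.27%, against 18.19% and 14.75% of all genes. No test exists for these counts, including the count of 0.

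Of the 68 members in Lhx6 cells, 47 stood higher at P1 than at E16.5 and then higher still at P5, as did 27.8% of all genes with enough UMIs, and 6 stood lower at both steps, as did 21.7%. In Nos1 cells the higher level at both steps was seen in 30 of 41 members and 23.3% of all genes, and the lower one in 2 members and 22.6%. These 41 members are those that passed the count minimum, which favored members higher at P5. In Lhx6 cells the median member was 0.85 higher at P1 than at E16.5 on the log2 scale and 0.66 higher at P5 than at P1. The medians of all genes were 0.16 and -0.09, and each step was read on 65 members. In Nos1 cells these steps were 0.88 and 0.22, against 0.16 and -0.17 over all genes. They were read on 45 and 51 members, so the 2 steps do not cover the same members.

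By family, the ratio of P5 over E16.5 in Lhx6 cells had a median of 1.90 on the log2 scale over 7 inward rectifiers, 1.85 over 7 calcium- or sodium-activated members, 1.49 over 10 auxiliary subunits, 1.45 over 8 tandem-pore members, and 1.32 over 32 voltage-gated members. It was 0.32 over the 4 members that do not encode subunits. Summed over members, the voltage-gated family took 653, 1306, and 2089 CPM in Lhx6 cells of the 3 stages in order of age and 722, 1194, and 1571 CPM in Nos1 cells. The auxiliary subunits took 207, 385, and 615 CPM in Lhx6 cells and 145, 320, and 498 CPM in Nos1 cells. The inward rectifiers took 26.9, 52.3, and 105.7 CPM in Lhx6 cells and 26.9, 47.2, and 66.2 CPM in Nos1 cells. All 3 families stood higher at each later stage in both sets.

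The largest single ratio of P5 over E16.5 in Lhx6 cells was that of Kcnc4, at 42.0-fold (32.4 to 55.5), with the levels given above. In Nos1 cells its fold was 30.0 (5.25 to 1195), with 1 UMI at E16.5. Kcnip4 stood at 2.40, 16.7, and 50.2 CPM in Lhx6 cells, a fold of 20.9 (15.6 to 28.5), and Kcnip2 differed by 18.9-fold (15.1 to 24.0). Kcnj4 went with 0.235, 2.12, and 9.72 CPM, a fold of 41.3 (17.1 to 130) that rested on 5 UMIs at E16.5. Kcnq3 differed by 9.80-fold (9.04 to 10.6) in Lhx6 cells and by 2.79-fold (1.88 to 4.28) in Nos1 cells. The distance between these folds depended on which Nos1 cells were read. In Nos1 cells that also held Lhx6, the log2 ratio of Kcnq3 went from 1.46 to 3.69. Without the 5% of cells with most UMIs it went to 1.19. In Lhx6 cells the main value was 3.26. Of the Shaker-type channels, Kcna4 differed by 11.6-fold (8.64 to 15.9) and Kcna6 by 8.94-fold (7.80 to 10.3), the latter with 12.2, 45.1, and 110 CPM in Lhx6 cells. Kcns2, a silent partner of other voltage-gated channels, stood at 1.65, 11.7, and 18.9 CPM, a fold of 11.5 (7.94 to 17.0).

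At the other end, Kcnh3 was 2.57-fold (2.15 to 3.09) lower at P5 than at E16.5 in Lhx6 cells, the only member below the fold. Its relatives of the same ether-a-go-go-like group stood on the same side without reaching the fold. Kcnh4 was at 10.5, 9.99, and 4.97 CPM, 2.11-fold (1.53 to 2.97) lower, and Kcnh8 at 11.3, 7.24, and 6.16 CPM, 1.83-fold (1.36 to 2.49) lower. Kcnh8 went the other way in Nos1 cells, at 5.05, 11.7, and 12.2 CPM, with 3 UMIs at E16.5 and a fold of 2.42 whose interval (0.735 to 12.6) spanned equality. Kcnrg, a soluble protein that interferes with the assembly of voltage-gated channels, was at 5.46, 4.74, and 2.48 CPM in Lhx6 cells, 2.20-fold (1.40 to 3.61) lower at P5.

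Kcnq1ot1 (chr7:143203458-143296549), a nuclear antisense RNA inside Kcnq1 that takes part in imprinting, stood at 776, 756, and 478 CPM in Nos1 cells and at 852, 773, and 532 CPM in Lhx6 cells. It was 1.60-fold (1.55 to 1.65) lower at P5 than at E16.5 in Lhx6 cells. Malat1, another abundant nuclear RNA, moved with it, at 30100, 29250, and 16310 CPM in the same cells, and the part of nuclear RNA content in this value was not tested. Kcnd3os and Kcnmb4os2, annotated antisense to Kcnd3 and Kcnmb4, overlap their partners' start regions and cannot be separated from them with certainty. Kcnd3os stood at 1.23, 2.75, and 4.54 CPM in Lhx6 cells, and Kcnmb4os2 stood at 20.2, 27.2, and 54.5 CPM.

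**Figure D4:**
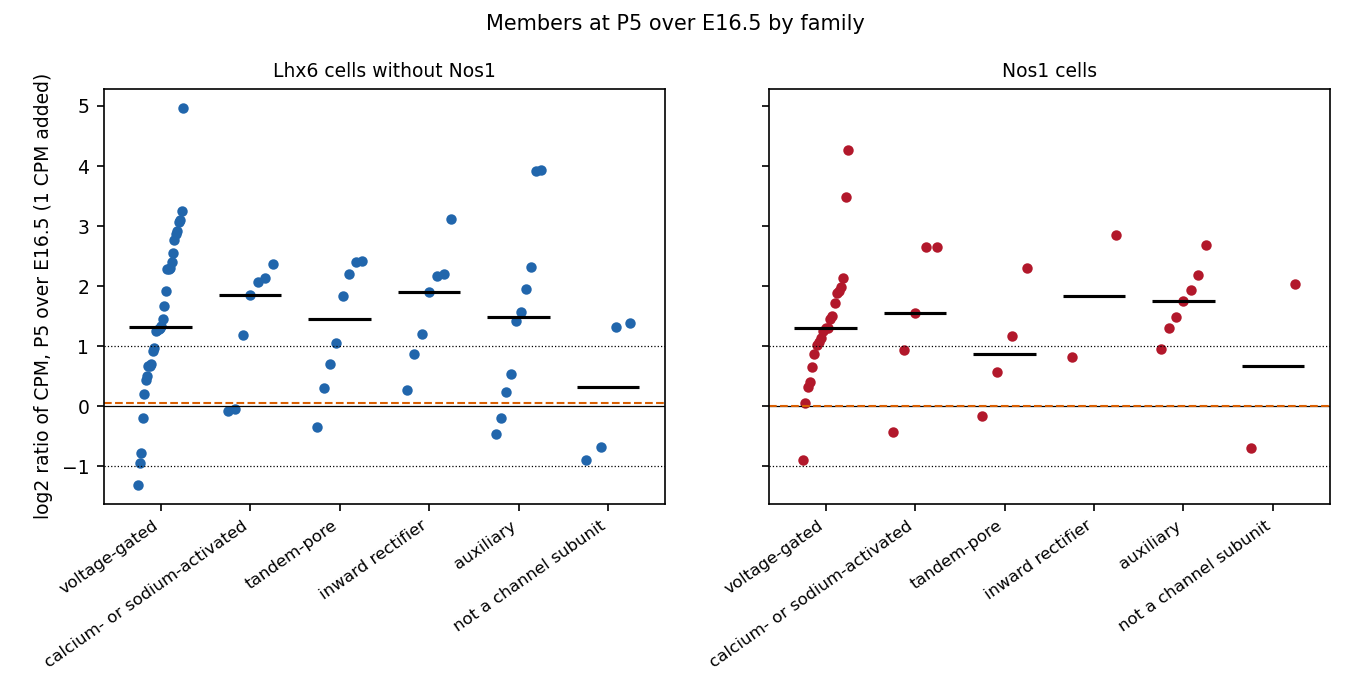
Log2 ratio of CPM at P5 over E16.5 (1 CPM added) for each member with enough UMIs, by family, in Lhx6 cells (left, blue) and Nos1 cells (right, red), with black bars for family medians, dotted lines at -1 and 1, and a dashed orange line at the median of all genes. Most points lie above the dashed line, and Kcnh3 at -1.31 is the only point below -1.

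Within the Lhx6 cells, members were also compared between cells with Reln and no Tac1 and cells with Tac1 and no Reln, genes that the study lists for Martinotti and non-Martinotti cells, respectively. At P5 there were 1036 Reln cells with a median of 5550 UMIs and 109 Tac1 cells with a median of 4805 UMIs. Of 59 members with enough UMIs, 13 were above the fold in Reln cells and 12 below, or 22.0% and 20.3%, against 9.50% and 4.75% of all 11273 genes. The median log2 ratio was 0.15 over the members and 0.02 over all genes. Of the 13 above, 3 had no UMI in Tac1 cells, and with these at their bound 10 were above and the median was 0.11.

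The study lists Kcnip2, like Tac1, for non-Martinotti cells and chose it on these same cells. Its direction between the Reln and Tac1 cells is therefore not independent evidence. Kcnip2 had the most extreme ratio of the members below, and its level was much higher in Tac1 cells. It stood at 19.5 CPM in Reln cells against 105 CPM in Tac1 cells at P1 and at 19.6 (16.2 to 23.5) against 251 (211 to 298) CPM at P5, 12.8-fold (9.93 to 16.6) lower in Reln cells. Kcnip4 stood at 38.7 against 108 CPM at P5, 2.79-fold (2.06 to 3.73) lower in Reln cells. Kcnj4 stood at 6.37 against 35.4 CPM, 5.55-fold (3.02 to 9.88) lower. Kcnh7, an Erg-type channel, stood at 34.7 against 130 CPM, 3.76-fold (2.82 to 4.95) lower. Kcnc2, of the fast delayed rectifiers, stood at 159.9 against 350.0 CPM, 2.19-fold (1.86 to 2.56) lower. Kcnip2, Kcnip4, Kcnj4, and Kcnj6 were thus below the fold both in Nos1 cells against Lhx6 cells and in Reln cells against Tac1 cells at P5, comparisons that share their Lhx6 cells.

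Members higher in Reln cells rested on few Tac1 UMIs. Kcnf1, a silent subunit, stood at 33.0 CPM in Reln cells against 1.86 CPM, from 1 UMI, in Tac1 cells at P5, a fold of 17.7 (3.15 to 704), but at 21.6 against 16.2 CPM at P1. Kcnh3 stood at 19.4 against 1.86 CPM at P5, also from 1 UMI, a fold of 10.4 (1.84 to 416), and at 41.6 against 8.08 CPM at P1. Kcnk9, an acid-sensitive tandem-pore channel, stood at 11.1 CPM in Reln cells with 0 UMIs in Tac1 cells, at least 1.98-fold higher than the floor of 5.59 CPM. Kcnd3os stood at 6.03 CPM with 0 UMIs in Tac1 cells, at least 1.08-fold higher. Its partner Kcnd3, an A-type channel related to Kcnd2, was better covered and stood at 97.5 (89.8 to 106) against 16.8 (7.66 to 31.8) CPM, a fold of 5.82 (3.04 to 12.8), while Kcnd2 differed by 1.15-fold (0.948 to 1.40). Kcnd3 was at 56.4 against 21.6 CPM at P1.

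**Figure D5:**
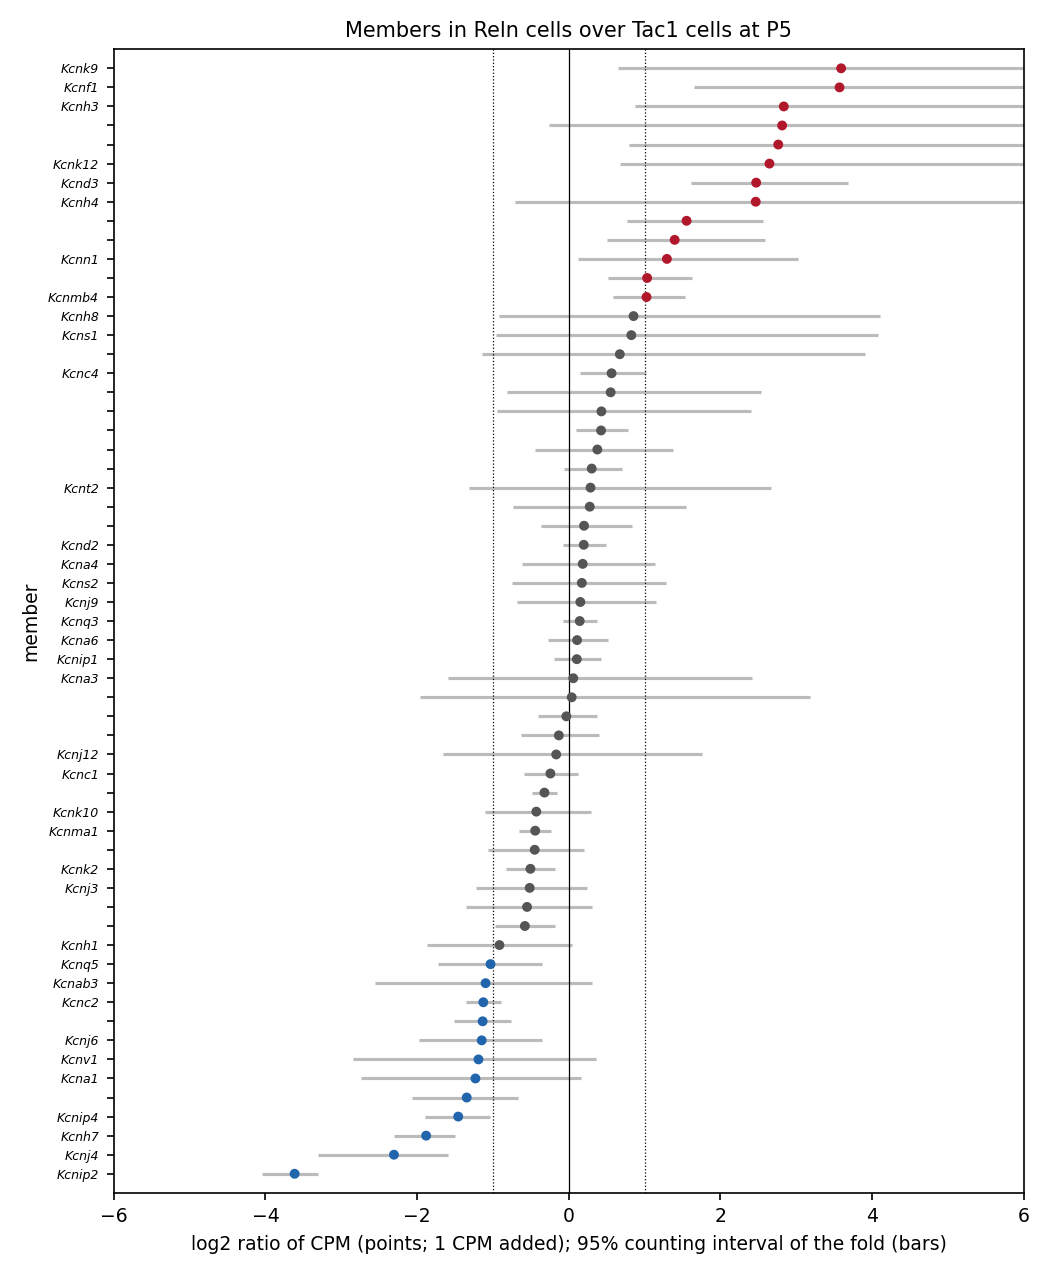
Log2 ratio of CPM in Reln cells over Tac1 cells, both within the Lhx6 cells, at P5 for each of the 59 members with enough UMIs (points, 1 CPM added; red above 1, blue below -1, grey between) with the 95% Clopper-Pearson interval of the fold (bars, cut at the axis limits, counting error only) and names for members that the text describes. Kcnip2 lies lowest at -3.61, and several of the red points have bars that leave the plot because the Tac1 cells held 0 or 1 UMI.

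Genes whose products bind or accompany potassium channels, or carry the related hyperpolarization-activated current, were read from a list of 26. At E16.5, 3 of the 24 with enough UMIs were above the fold in Nos1 cells (Cntn2, Dlg1, and Lrrc55) and 2 were below (Dpp10, and Amigo3 with no UMI in Nos1 cells), against 6.07% and 9.40% of all genes. Cntn2, an axonal adhesion protein, stood at 185 against 20.2 CPM, a fold of 9.14 (7.34 to 11.3), and the part of the other cell types among the E16.5 Nos1 cells in this value was not tested. At P5, 0 of the 23 with enough UMIs were above the fold and 1 was below, against 3.64% and 6.38% of all genes, and at P1 none passed it in either direction. No test stands behind these counts. The one below was Lgi2, a secreted ligand of the Adam22 receptor group, at 38.7 CPM in Nos1 cells against 109 CPM in Lhx6 cells at P5. Dpp6, which joins the Kcnd channels, was at 321 against 259 CPM. Between stages, 10 of 24 were above the fold at P5 over E16.5 in Lhx6 cells and none was below, against 18.5% and 12.8% of all genes. Hcn2, a hyperpolarization-activated channel, stood at 10.5, 29.6, and 92.8 CPM in Lhx6 cells and at 15.2, 19.8, and 81.0 CPM in Nos1 cells.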

How the data were processed

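Single-cell RNA-seq libraries (10x Genomics) of GFP+ cells were analysed, 1 per stage. The authors used Cell Ranger on build GRCm38 (version 3.1.0 for E16.5 and P5, 3.0.2 for P1, per the file headers) and deposited whole-number UMI counts per gene and cell, without normalization. Whether counting used the strand is not given in the sources used here.

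Cells with over 700 genes and under 10% mt- UMIs were kept, and doublets were not removed. Counts were summed per cell set, as the report describes, with pandas 2.3.3, scipy 1.17.1, and numpy 2.4.6 under Python 3.11.15, and drawn with matplotlib 3.10.9. With 1 library per stage, no test was made. Depth limits the Nos1 cells most: 3 counts equal 5.05, 1.52, and 1.53 CPM at E16.5, P1, and P5, respectively. Intervals and floors cover counting error only. The script steps were tested on simulated counts. Coordinates are from GENCODE M21 and promoters from RefSeq.

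The members, gene lists, and rules were chosen with earlier results of these data known. Named are the members past the fold between Nos1 and Lhx6 cells at both P1 and P5, the 3 highest and 3 lowest at E16.5, the 8 largest and 5 smallest ratios of P5 over E16.5 in Lhx6 cells, up to 4 each way between Reln and Tac1 cells at P5, the 10 with most UMIs, Kcnd2, Kcnip2, Kcnc1, Kcnc2, the 4 that are not channel subunits, and partner genes past the fold at both P1 and P5, of which there were 0. Some members that this rule picks are not reported here. Others are named after their values were seen. In total, 14 alternatives covered the cell filter, the cell sets, scaling, thinning, the pseudocount, the count minimum, and the removal of cells with most UMIs or excitatory markers. Clusters and cell classes of the study were not used here.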

Additional observations from a re-analysis of the deposited data

Results flagged for a closer look

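For 3 members, the ratio between Nos1 and Lhx6 cells was past the fold in opposite directions in 2 libraries. The difference between the stages was not tested, since each stage has 1 library.

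Kcnk12, a tandem-pore channel subunit, had a log2 ratio of 1.93 at E16.5 and -1.60 at P5. It stood at 11.8 (4.74 to 24.3), 5.08 (2.44 to 9.34), and 4.08 (1.76 to 8.03) CPM in Nos1 cells at E16.5, P1, and P5, from 7, 10, and 8 UMIs, and at 2.35, 3.12, and 14.4 CPM in Lhx6 cells. Kcnn1, a small-conductance calcium-activated channel, had a log2 ratio of 1.51 at E16.5 and -1.48 at P5. It stood at 11.8 (4.74 to 24.3), 8.12 (4.64 to 13.2), and 6.11 (3.16 to 10.7) CPM in Nos1 cells and at 3.48, 7.49, and 18.8 CPM in Lhx6 cells. In both genes the intervals of the Nos1 cells overlapped across the 3 stages, while those of the Lhx6 cells at P5 lay above those at E16.5.

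Kcnj4, an inward rectifier, had a log2 ratio of 1.08 at P1 and -1.60 at P5. It stood at 5.58 (2.79 to 9.99) and 2.55 (0.827 to 5.94) CPM in Nos1 cells, from 11 and 5 UMIs, and at 2.12 (1.24 to 3.40) and 9.72 (7.82 to 11.9) CPM in Lhx6 cells. The ratio at P1 was within the fold in 5 of the 9 alternatives that gave a value, with a lowest value of 0.36 when Nos1 cells needed at least 2 Nos1 UMIs. The E16.5 Nos1 cells behind the first pair carried 604 CPM of excitatory neuron markers. Without cells carrying such markers, the E16.5 log2 ratios of Kcnk12 and Kcnn1 were 1.32 and 1.30. Without the 5% of cells with most UMIs they were -1.52 and 1.72, the first from 0 UMIs of Kcnk12 in the remaining Nos1 cells, where the pseudocount sets its size.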

How the results depend on the processing

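Of 121 values past the fold among members picked by the naming rule or after their values were seen, 76 were past it under each of the 14 alternatives that gave them a value. No paired analysis was possible because each stage has 1 library. The counts of members below the fold at P5 and above it between P5 and E16.5 in Lhx6 cells stayed within 1.5 times, while smaller counts moved more. With at least 2 Nos1 UMIs, P1 had 8 members above and 10 below. In Nos1 cells with Lhx6, and likewise without cells carrying excitatory markers or without the 5% of cells with most UMIs, 16 members were below at E16.5. The latter filters, and the stricter filter of over 1000 genes and under 5% mt- UMIs, each left 8 below at P1. Against all cells without Nos1, 3 were above at P1 and 3 at P5. A pseudocount of 5 CPM left 3 below at E16.5, 3 above and 2 below at P1, 3 above at P5, and 7 below in Reln over Tac1 cells. A minimum of 10 UMIs gave 8 above at P1, and 4 below at P5 over E16.5 in Nos1 cells. A minimum of 50 UMIs gave 5 above at E16.5, 3 above at P1, and 18 above at P5 over E16.5 in Nos1 cells. Below the fold at P5 over E16.5 in Lhx6 cells were 3 members with the stricter filter, with thinning, with the mean of per-cell CPM, and with a pseudocount of 0.1 CPM, and 2 without the 5% of cells with most UMIs. In Nos1 cells 1 was below with per-cell means and 1 without cells carrying excitatory markers. At E16.5, the log2 ratio of Kcna1 became -1.18 in Nos1 cells with Lhx6 and -1.04 without excitatory markers, and without the 5% of cells with most UMIs that of Kcna4 became -1.62, from 1.87, and that of Kcnk12 became -1.52, from 1.93. In all 4 cases 0 UMIs were left in the Nos1 cells, so the pseudocount sets the size of these ratios. The cause of the moved counts was not tested. Depth limits the 67 Nos1 cells of E16.5 and the 109 Tac1 cells of P5, where single UMIs decide several ratios.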
